A study of Mus musculus with 2 samples.

Results

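Chemokines are small secreted or membrane-tethered proteins that guide leukocytes, and 10 of their genes that are often discussed in fatty liver were examined in the liver of mice with and without Iah1: Ccl2, Ccl3, Ccl4, Ccl5, Ccl6, Ccl9, Ccl24, Cxcl1, Cxcl12 and Cxcl16. They were taken from the deposited value table as every probe set that the platform annotation gives exactly 1 gene symbol, with that symbol among these names. This found all 10 genes, each through 1 probe set, out of 22180 genes measured in the same way. The samples were 2 liver arrays, 1 labelled Iah1-WT and 1 labelled Iah1-KO, a systemic knockout of the esterase homologue gene Iah1. The donors of both pools were male, changed from standard chow to the high-fat diet at 6 weeks of age, ate it for 12 weeks, lived in single cages and had no food for the last 4 hours. RNA of 3 mice was combined on each array, so the spread between mice is not seen, no test of genotype was possible, and no value has a replicate error. The sources used here do not say how the knockout allele was made, and no chow-fed group was analysed here.

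In chemokine signalling, a ligand binds heparan sulphate on the vessel wall and a seven-helix receptor on a passing leukocyte, which then adheres and migrates. Ligands with adjacent first cysteines (the Ccl genes) mainly draw monocytes, lymphocytes and eosinophils, while ligands with a residue between those cysteines (the Cxcl genes) draw neutrophils and lymphocytes or keep resident cells in place. In liver, Kupffer cells, sinusoidal endothelium, stellate cells and hepatocytes can all be sources, and recruitment of monocytes through Ccl2 and its receptor Ccr2 is a known feature of steatohepatitis. Many inducible chemokine genes carry binding sites for NF-kB, the transcription factor that toll-like and cytokine receptors switch on.

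Of the 10 genes, 1 differed by 1.5-fold or more between the pools. Cxcl16 was 1.67-fold lower in KO. The other 9 lay between -0.33 for Ccl3 and 0.38 for Ccl5 on the log2 scale (KO minus WT throughout). Ccl3 and Ccl24 were near background in both arrays. The remaining 8 passed an intensity filter of 4.68, which is the median over all genes of the brighter array's log2 signal, and all 8 lay above it in both arrays, so none passed through 1 genotype alone. By comparison, among all 11090 genes above that filter 2.45% were lower and 1.47% were higher in KO by 1.5-fold or more. The 8 chemokine genes had a median difference of -0.029, with 4 below 0 and 4 above, and the median over all genes above the filter was -0.025.

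A second gauge of background came from 1428 olfactory, vomeronasal and taste receptor genes, which liver is not known to use. Their median signal in the brighter array was 2.45, 95% of them lay at or below 4.05, and 30 (2.10%) reached the filter. Probe sets differ in how brightly they hybridise, so a signal is set here against this background and against the same probe set on the other array, not against another gene as an amount of RNA. Among genes below the filter, 6.43% differed by 1.5-fold or more in either direction, as did 8.75% of the sensory receptor genes, against 3.92% of genes above it.

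**Figure D1:**
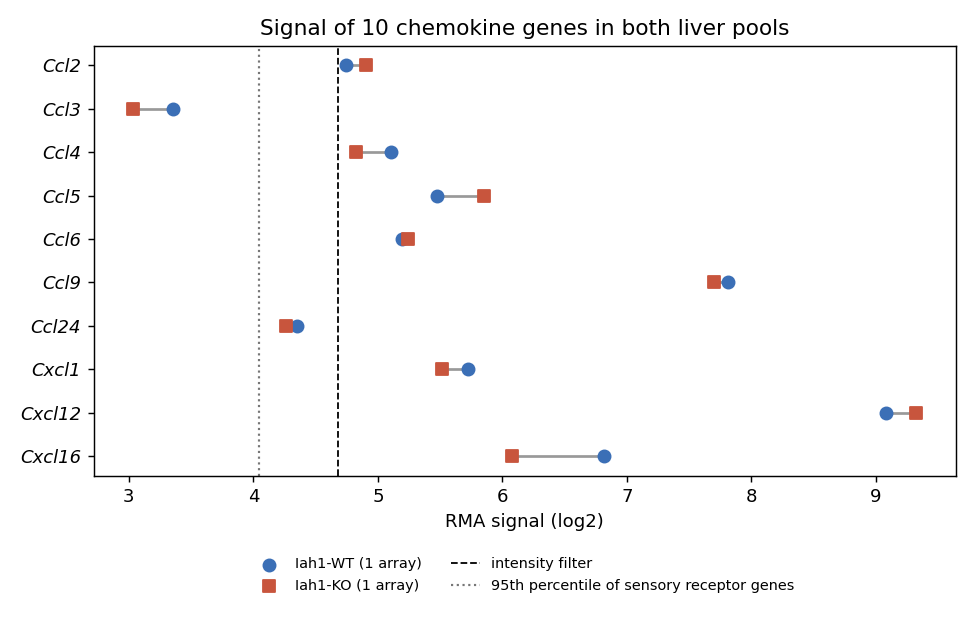
RMA signal (log2, horizontal axis) of each chemokine gene in the Iah1-WT array (circles) and the Iah1-KO array (squares), 1 probe set and 1 array per point, with the intensity filter (4.68, dashed) and the 95th percentile of sensory receptor genes (4.05, dotted). Ccl3 lies left of both lines, Ccl24 lies between them, and Cxcl16 has the widest gap between the arrays.

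The upstream windows of Cxcl1, Cxcl12 and Ccl9 are shown because these 3 genes passed the filter and carry different promoter letters. RefSeq promoter windows of GRCm38.p6 were matched by symbol for 5 of the 10 genes, and the 250 bases before each start site were searched on both strands for GGGANTT, the letters with which classical NF-kB sites such as that of the immunoglobulin kappa enhancer begin, for the GC box GGGCGG bound by Sp1, and for the TATA box letters TATAAA. Ccl2, Ccl4, Ccl5, Ccl24 and Cxcl16 had no matched window, so their promoters were not searched. Capitals mark the matches.
Cxcl1 (chr5:90890995-90891244, plus strand): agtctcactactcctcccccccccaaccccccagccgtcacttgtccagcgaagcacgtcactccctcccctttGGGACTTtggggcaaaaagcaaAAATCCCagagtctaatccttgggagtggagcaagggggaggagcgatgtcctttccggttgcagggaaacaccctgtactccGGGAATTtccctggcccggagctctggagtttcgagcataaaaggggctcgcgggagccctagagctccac
Cxcl12 (chr6:117168285-117168534, plus strand): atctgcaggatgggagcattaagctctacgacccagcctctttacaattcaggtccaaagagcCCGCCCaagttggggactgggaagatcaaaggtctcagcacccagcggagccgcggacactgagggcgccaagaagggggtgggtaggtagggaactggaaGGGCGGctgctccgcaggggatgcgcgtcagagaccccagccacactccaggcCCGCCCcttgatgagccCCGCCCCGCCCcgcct
Ccl9 (chr11:83578637-83578886, minus strand): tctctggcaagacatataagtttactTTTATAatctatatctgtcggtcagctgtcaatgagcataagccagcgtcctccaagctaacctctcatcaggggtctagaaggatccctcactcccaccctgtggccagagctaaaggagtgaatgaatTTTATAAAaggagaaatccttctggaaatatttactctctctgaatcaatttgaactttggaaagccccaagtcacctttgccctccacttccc
Cxcl1 held 3 matches to the NF-kB letters, GGGAATT from 71 to 65 and GGGACTT from 176 to 170 bases before the start, and 1 on the opposite strand from 154 to 148, and 14.4% of all 32851 windows of this length held that motif. Cxcl12 held 5 matches to the GC box, a motif found in 32.7% of all windows. Its matches from 16 to 11 and from 11 to 6 bases before the start share a base, so they are not separate sites. Ccl9 held TATAAA on the gene's own strand from 92 to 87 bases before the start and 2 further matches on the opposite strand. The opposite-strand match from 94 to 89 overlaps the own-strand match. Of all windows, 12.4% had that motif. No matches of different motifs overlapped. The windows of Ccl6 and Ccl3 held none of the 3 motifs, which says only that those letters are not there.

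Cxcl16 was the member with the largest difference. It encodes a chemokine made as a transmembrane protein, which also takes up oxidised lipoprotein and which, once shed, draws natural killer T cells and other lymphocytes that carry Cxcr6. Its signal was 6.81 in WT and 6.08 in KO. The difference was -0.74, and both arrays lay well clear of the filter. The 1000 genes nearest to it in mean signal had a standard deviation of 0.22 between the pools, and 5 of them were at least as far below 0. In the RefSeq annotation the gene overlaps Zmynd15 by position. Strand was not considered, so whether the probe set takes up signal from that neighbour was not examined. The difference stayed between -0.74 and -0.70 with loess, repeated quantile normalization and median centring, which shift values already normalized by RMA only a little.

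Cxcl12, also called SDF-1, is produced steadily by stromal and endothelial cells and holds Cxcr4-bearing leukocytes and progenitors in place. Its signal was 9.08 in WT and 9.32 in KO, so the KO pool was higher by 0.25 on the log2 scale, or 1.19-fold. Differences were narrow at this brightness, with a standard deviation of 0.16 among the 1000 genes of nearest signal, and 21 of those were at least as far above 0. The gene remained well short of 1.5-fold, and 0 sensory receptor genes were as bright in this array set.

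Of the monocyte and neutrophil attractants, neither reached 1.5-fold. Ccl2 encodes MCP-1, the main ligand of Ccr2 on inflammatory monocytes, and gave 4.74 in WT and 4.90 in KO, which was 0.16 higher. Both values cleared the filter only narrowly, and 19 of the 1428 sensory receptor genes (1.33%) were as bright or brighter. The small margin over background limits what this difference can show. Cxcl1, the mouse KC gene whose product recruits neutrophils through Cxcr2, gave 5.72 in WT and 5.51 in KO, so it differed by -0.21. Among the 1000 genes nearest to Cxcl1 in signal, 437 differed by as much in either direction, and among those nearest to Ccl2 595 did.

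Ccl5, Ccl4 and Ccl3, which draw T cells and monocytes, had differences of both signs. Ccl5, or RANTES, which T cells, natural killer cells and platelets carry in quantity, gave 5.47 in WT and 5.85 in KO, the largest positive difference of the 10 at 0.38. Of the 1000 genes of nearest signal, 60 were at least as far above 0. Ccl4, or MIP-1 beta, which activated macrophages and lymphocytes release, gave 5.11 in WT and 4.82 in KO, so it differed by -0.29. Its signal was near the filter, and 338 of the 1000 nearest genes differed by as much in either direction. Ccl3, or MIP-1 alpha, gave 3.36 in WT and 3.03 in KO. Both values lay below the filter and below the 95th percentile of sensory receptor genes, so its difference of -0.33 is not read as a change in expression and no fold is given. Ccl3 and Ccl4 lie next to each other on chromosome 11 and their RefSeq gene models overlap by position. Strand was not considered there either, so whether their probe sets share signal was not examined.

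Ccl6 and Ccl9 encode 2 closely related macrophage chemokines that signal through Ccr1, and they are adjacent on chromosome 11. Ccl6 gave 5.19 in WT and 5.24 in KO and so differed by 0.054. Ccl9 gave 7.81 in WT and 7.70 in KO and so differed by -0.11. The standard deviation of the 1000 genes of nearest signal was 0.31 for Ccl6 and 0.17 for Ccl9, and both differences were smaller than that. Ccl24, or eotaxin-2, a Ccr3 ligand that draws eosinophils and that resident macrophages make, gave 4.35 in WT and 4.26 in KO. Both lay below the filter, 49 of the sensory receptor genes were as bright or brighter, and the difference was -0.088. Ccl24 was the nearest of the 10 below the filter, as Ccl2 was the nearest above it.

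**Figure D2:**
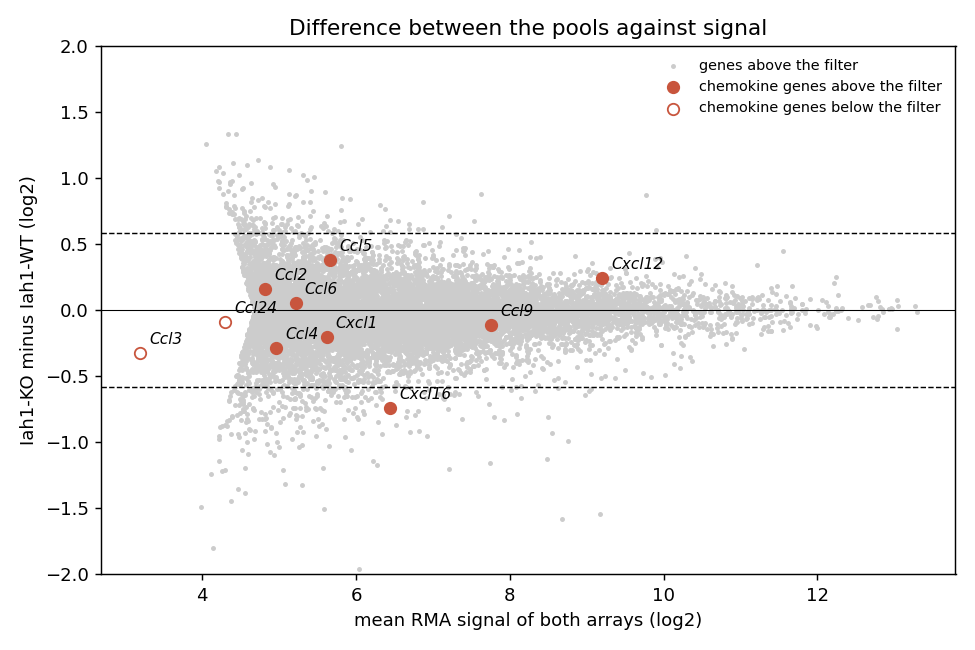
KO minus WT difference (log2, vertical axis) against the mean RMA signal of both arrays (log2, horizontal axis) for all genes above the filter (grey) and for the chemokine genes above (filled) and below it (open), with dashed lines at 1.5-fold. Cxcl16 at -0.74 lies below the lower line and the other 9 lie inside both lines; 1 gene of the 11090 falls outside the plotted range.

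Receptors of these ligands gave little signal in whole liver. Of 24 chemokine receptor genes listed, 23 were measured, 6 passed the filter and 0 of these differed by 1.5-fold or more, against 3.92% of all genes above the filter. Their median difference was 0.0064. Ccr1, the receptor of Ccl3, Ccl5, Ccl6 and Ccl9, gave 3.04 in WT and 2.68 in KO. Ccr2, the Ccl2 receptor, gave 3.81 and 3.49 in the same order, and Ccr3, the receptor of Ccl5 and Ccl24, gave 2.35 and 2.46. All 3 were below the filter and below the 95th percentile of the sensory receptor genes. Cxcr2, the receptor of Cxcl1, gave 4.39 in WT and 3.90 in KO and stayed below the filter. Cxcr6, the receptor of Cxcl16, gave 3.10 in WT and 2.68 in KO and was near background in both arrays.

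Both receptors of Cxcl12 passed the filter. Cxcr4 gave 4.91 in each array, with a difference of -0.0019. The scavenging receptor gene Ackr3 gave 4.66 in WT, just below the filter, and 4.79 in KO. That is a difference of 0.13, or at least 1.08-fold against the filter. Here and below, such a bound sets the brighter array against the filter, which is a chosen cut and not a detection limit. The bound carries no replicate error. Ackr2, a decoy receptor that degrades inflammatory Ccl ligands, gave 5.89 in WT and 5.90 in KO. Ackr1, which carries chemokines across endothelium, was below the filter at 3.56 and 3.76. Other receptor genes above the filter were Ccrl2, a non-signalling chemerin-binding receptor, at -0.53 (at least 1.29-fold lower, with the KO array under the filter), Ccr7, the homing receptor of dendritic and naive T cells, at 0.43 (at least 1.04-fold higher, with the WT array under the filter), and the fractalkine receptor gene Cx3cr1 at -0.24.

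**Figure D3:**
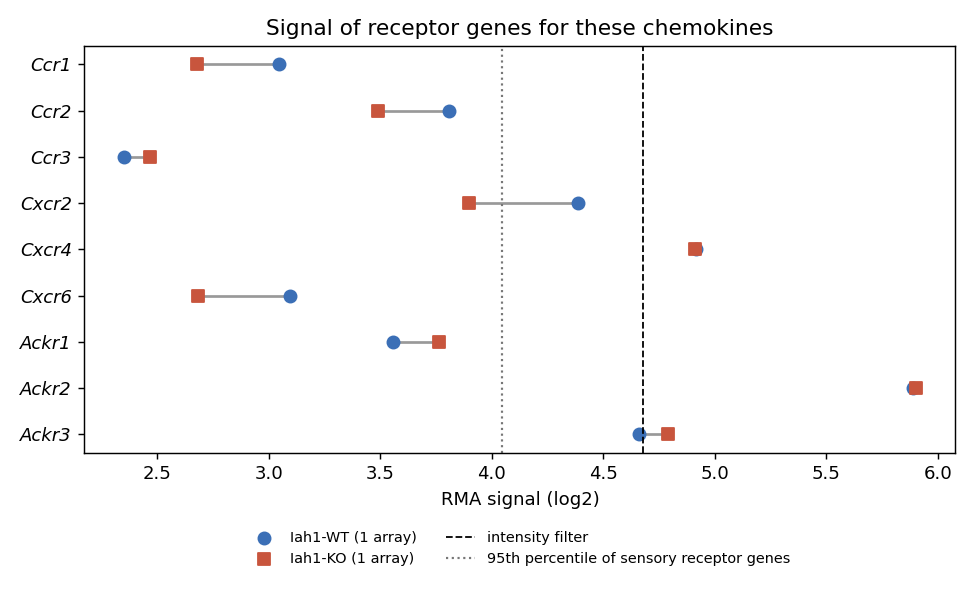
RMA signal (log2, horizontal axis) of the receptor genes of these chemokines in the Iah1-WT array (circles) and the Iah1-KO array (squares), with the filter (4.68, dashed) and the 95th percentile of sensory receptor genes (4.05, dotted). Cxcr4, Ackr2 and Ackr3 reach the filter, while Ccr1, Ccr2, Ccr3, Cxcr6 and Ackr1 lie left of both lines in both arrays.

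The rest of the chemokine family was likewise mixed. Of 31 further chemokine genes listed, 26 were measured and 9 passed the filter, with 5 below 0, 4 above and a median of -0.031, whose sign turned with the filter (0.13 when the filter was taken from the sensory receptor genes). Cxcl13, which attracts B cells through Cxcr5, was 1.77-fold lower at 5.64 in WT and 4.81 in KO. Ccl11, the eotaxin gene and a Ccr3 ligand like Ccl24, gave 3.97 in WT and 4.99 in KO, at least 1.24-fold higher against the filter. By RMA values those 2 were past 1.5-fold, against 3.92% of all genes above the filter, but the bound for Ccl11 does not reach that size. The interferon-inducible Cxcr3 ligands went both ways, with Cxcl11 at 0.32, Cxcl9 at -0.21 and Cxcl10, chosen after its value was seen, at -0.13. Cxcl14, a chemokine of epithelia and hepatocytes, was at 0.34 and Ccl25, a Ccr9 ligand, at 0.18.

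Genes of the signals that induce chemokines, where they passed the filter, differed by -0.58 (Cd14) to 0.19 on the log2 scale. Of 31 listed genes 29 were measured and 22 passed the filter, 15 of them below 0, as were 6176 of all 11090 genes above the filter, with a median of -0.083. None was past 1.5-fold, against 3.92% of all genes, which for a list this short says little. The endotoxin co-receptor gene Cd14 was at -0.58 (at least 1.23-fold lower, with KO under the filter) and Ly96, the co-receptor of Tlr4, at -0.32. The interleukin-1 receptor gene Il1r1 was at -0.44, the interleukin-1 gene Il1b at -0.38 (at least 1.27-fold lower, with KO under the filter) and the NF-kB subunit gene Nfkb2 at -0.42. Irf7, an interferon regulator, was at -0.28. The cytokine genes Tnf (3.56 in WT and 3.57 in KO), Il6 (2.26 and 2.18) and Ifng (3.07 and 2.85), chosen after their values were seen, were below the filter in both arrays. So were Il4 and Il13, with no value of either above 3.36. Nfkbia, an inhibitor that NF-kB itself induces, was at 0.040, also chosen after its value was seen.

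Markers of cells that can make these chemokines differed between the pools as well. Of 20 Kupffer cell and macrophage markers, all measured, 16 passed the filter and 15 of these lay below 0, with a median of -0.46 and a mean log2 signal of 7.13 in WT and 6.72 in KO. C1qb was at -0.81, Vsig4 at -0.71 and Adgre1 at -0.67. All 14 markers of sinusoidal endothelium passed the filter and lay below 0, with a median of -0.49 and a mean of 7.93 in WT and 7.42 in KO, and Lyve1 was at -0.83. The difference of Cxcl16, -0.74, lay within the range of both lists, -0.81 to 0.048 for macrophages and -0.83 to -0.25 for endothelium, and 1 marker in each was lower still. Ccl9 and Ccl6, at -0.11 and 0.054, and Cxcl12, at 0.25, lay above both medians. The part of these cell types in the chemokine values was not tested, and in bulk liver fewer cells of a type and less RNA per cell cannot be told apart.

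Stellate cell markers had a median of -0.16, with a mean of 6.86 in WT and 6.81 in KO over 12 genes, all above the filter. Lrat was at -0.52. Des was at 0.93 by RMA values, with 3.75 in WT, under the filter, and 4.68 in KO, barely above it. Against the filter Des was at least 1.001-fold higher, so the bound shows almost no rise. All 10 hepatocyte markers passed the filter with a median of -0.042, a mean of 10.9 in WT and 10.8 in KO, and the widest difference was -0.49 for Serpina1e. Markers of lymphocytes and granulocytes, which some of these ligands attract, gave values under the filter. Not 1 of 12 measured T and natural killer cell markers, 9 neutrophil markers, 4 eosinophil markers or 5 B and plasma cell markers reached the filter in either array, and the highest single values were 4.45, 3.93, 3.67 and 4.35 in that order. The T and natural killer cell mean was 3.66 in WT and 3.59 in KO. Those markers were all under the filter, so this mean cannot show whether the cells differed. Ccl5, a gene of those cells, was higher by 0.38, and its source was not tested. Platelet markers, another source of Ccl5 protein, had 2 of 5 measured genes above the filter, Itga2b at 0.35 (at least 1.03-fold higher, with WT under the filter) and Treml1 at -0.078. Of 5 measured dendritic cell markers 2 passed, Zbtb46 at -0.35 (at least 1.24-fold lower, with KO under the filter) and Cd209a at 0.29, and the 2 of 5 bile duct markers that passed were Krt23 and Sox9, each at -0.17.

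**Figure D4:**
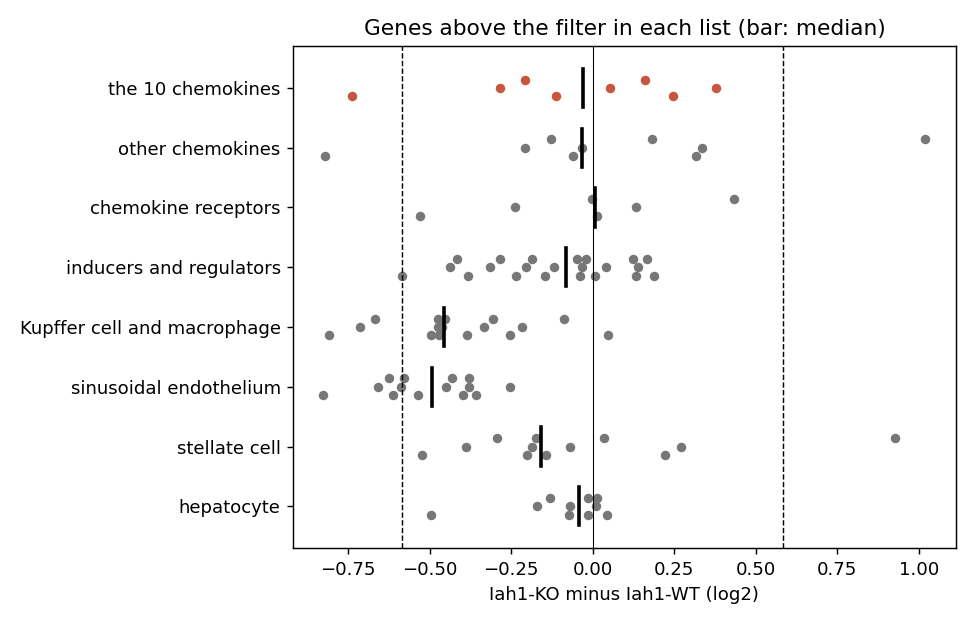
KO minus WT difference (log2, horizontal axis) of each gene above the filter in 8 gene lists (points), with the list median (bar) and dashed lines at 1.5-fold. The 8 chemokine points straddle 0 with a median of -0.029, while the macrophage and endothelial medians lie at -0.46 and -0.49.

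The arrays themselves were alike: over 41345 probe sets the median was 4.08 (WT) and 4.10 (KO), and Pearson's r was 0.983 over these probe sets, which do not stand for replicates. Iah1, the targeted gene, gave 8.59 in WT and 3.90 in KO, at least 15.1-fold lower against the filter, as the labels have it. The only measurement error the arrays hold is the disagreement of several probe sets of 1 gene, which had a standard deviation of 0.27 for a single probe set's difference over 604 genes above the filter. It leaves out mice, labelling and hybridisation. Each chemokine gene here has 1 probe set, so it has no such check of its own.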

How the data were processed

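Total liver RNA (100 ng per array) was labelled for Affymetrix whole-transcript arrays, and the deposited log2 values come from RMA in Affymetrix Expression Console 1.3.0, per the submitters' processing notes. RMA subtracts background, equalises the arrays and summarises probes; it compresses differences of dim probe sets and removes a general shift. The probe sets' genome build is not stated in these sources. Of 41345 probe sets, 23521 had 1 symbol, 1814 had several and 16010 had none in the platform annotation; all 10 chemokine genes matched RefSeq gene identifiers. A gene's value was the mean of its probe sets, and differences are KO minus WT. With 1 array per genotype there was no test; genes were called by size (1.5-fold, 0.58 on the log2 scale) above the filter. Array number limits the precision. The genes and lists were chosen with earlier results of these data known. Named genes were all 10 chemokines, their known receptors, and up to 6 genes per list above the filter with the largest absolute difference. The counting step was run on simulated data with planted shifts larger than the threshold, reduced noise and no working intensity filter. Recovery was therefore nearly fixed in advance, so the run checks the code and not the calls made here. Python 3.11.15, pandas 2.3.3 and statsmodels 0.14.6 (loess span 0.4) were used. Alternatives were no filter, filters at the 75th percentile and at the 95th percentile of sensory receptor genes, thresholds of 1.3-fold and 2-fold, loess, repeated quantile normalization, median centring, and the brightest or dimmest probe set.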

Additional observations from a re-analysis of the deposited data

How the results depend on the processing

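All 10 chemokine genes kept the sign of their difference with loess, repeated quantile normalization and median centring, where each moved by less than 0.27. The values had already been normalized by RMA, so these settings could shift a gene only a little, and a kept sign says little. Choosing the brightest or dimmest probe set could not change them, since each has 1, and centring shifts all genes alike. The count of 1 chemokine gene lower by 1.5-fold or more became 0 at a threshold of 2-fold, and 0 were higher at every setting run, also at 1.3-fold. With the filter at the 75th percentile (6.52), 3 chemokine genes passed, Ccl9, Cxcl12 and Cxcl16. The 2 other chemokine genes past 1.5-fold by RMA values became 1 at 2-fold (Ccl11, whose bound against the filter is 1.24-fold) and 0 with the 75th percentile filter, since Cxcl13 and Ccl11 are dimmer than that. The count of chemokine receptor genes went from 0 to 2 at 1.3-fold by RMA values; these are Ccr7 and Ccrl2, whose bounds of 1.04-fold and 1.29-fold do not reach that threshold. The median of the other chemokine genes changed with the filter, from -0.031 to -0.21 at the 75th percentile and to 0.13 at the filter from sensory receptor genes, so its sign is not settled, and the macrophage median was -0.36 with no filter. No paired analysis was possible because each genotype had 1 array. Signal over background limits Ccl3 and Ccl24, and also Ccl2 and Ccl4, whose values lay within 0.43 of the filter.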

Other observations

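In the RefSeq gene order of chromosome 11, the RANTES gene Ccl5 (0.38) is followed without another coding gene between by the macrophage chemokine genes Ccl9 (-0.11) and Ccl6 (0.054), and then by the MIP-1 alpha gene Ccl3 (-0.33, below the filter) and the MIP-1 beta gene Ccl4 (-0.29). In the same chromosome's other group, Ccl2 at 0.16 is followed by Ccl7, whose product also draws monocytes, at -0.031 (chosen after its value was seen) and by Ccl11, whose RMA difference was 1.02 with the WT array below the filter. On chromosome 5, the neighbours Cxcl15 and Cxcl2 of Cxcl1 were below the filter in both arrays.

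Genes whose products cleave or present chemokines were measured as a further list, with 11 of 13 above the filter, 7 of these below 0 and a median of -0.054. Adam10 and Adam17, proteases that shed Cxcl16 from the cell surface, were at -0.30 and -0.18. The macrophage elastase gene Mmp12, which can clip chemokines, gave 5.09 in WT and 3.65 in KO, at least 1.33-fold lower against the filter. By RMA values it alone in that list was past 1.5-fold, as were 3.92% of all genes above the filter, but its bound does not reach that size. Among heparan sulphate carriers, Sdc3 was at -0.29 and Sdc1 at 0.25. Dpp4, the peptidase that inactivates Cxcl12, gave 9.32 in WT and 9.27 in KO and so differed by -0.059; it was chosen after its value was seen.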
